A study of Mus musculus with 12 samples.

Results

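A set of 9 genes that mark B cells and antibody-secreting plasma cells, or that serve the antibodies they make, was followed through the colon of mice with and without interleukin-10 and STING. They were Cd79a, Cd79b, Ms4a1, Cr2, Cxcr5, Mzb1, Derl3, Xbp1 and Pigr, taken by name from the 22180 genes that had a probe set with exactly 1 symbol in the platform annotation. For a gene with several probe sets the one with the highest mean was taken, but each of the 9 had only 1. The mice fell into 4 genotypes with 3 arrays each: DKO (IL10-/- STING-/-), IL10KO (IL10-/- STING+/+), SKO (IL10+/+ STING-/-) and WT (IL10+/+ STING+/+). The tissue was colon and the RNA total RNA in all 12 samples, and no treatment was named. Neither age, strain background nor the way the alleles were made is stated in the labels. The design text names the IL10KO and double knockout colons as those to be compared. Since the labels do not tie each array to an animal of its own, p-values cover the spread between samples, which may be technical.

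B cells recognise antigen through surface immunoglobulin, which signals through the paired chains encoded by Cd79a and Cd79b. In the colon, B cells gather in lymphoid follicles, and their plasma cell descendants lie scattered in the lamina propria, where most secrete immunoglobulin A. Plasma cells give up much of the surface apparatus of B cells and expand the endoplasmic reticulum. Secreted immunoglobulin A, joined by the J chain, is carried across the epithelium by the polymeric immunoglobulin receptor, the product of Pigr, which is made by epithelial cells and not by B cells. Interleukin-10 is a cytokine that restrains intestinal inflammation, and STING is an adaptor that passes on the sensing of DNA in the cytosol.

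Promoter sequences (250 bases before to 50 after the start, RefSeq, GRCm38.p6) could be matched for 5 of the 9 genes: Cd79a, Cr2, Derl3, Xbp1 and Pigr. Both strands were searched for the octamer ATTTGCAT of immunoglobulin promoters, the core TCCC, 2 bases, GGGA of the B cell factor EBF1, the XBP1 response core TGACGTGG, the endoplasmic reticulum stress element CCAAT, 9 bases, CCACG, and the palindromic E-box CACGTG. The E-box was added after the promoters had been seen. Derl3 and Pigr are printed because they were the genes of the 5 in which any of these letters stood. Capitals mark the E-box in both and the outer 5 bases at each end of the stress element in Derl3. The Derl3 promoter lies at chr10:75893148-75893447 on the forward strand and that of Pigr at chr1:130826434-130826733 on the forward strand.
Derl3: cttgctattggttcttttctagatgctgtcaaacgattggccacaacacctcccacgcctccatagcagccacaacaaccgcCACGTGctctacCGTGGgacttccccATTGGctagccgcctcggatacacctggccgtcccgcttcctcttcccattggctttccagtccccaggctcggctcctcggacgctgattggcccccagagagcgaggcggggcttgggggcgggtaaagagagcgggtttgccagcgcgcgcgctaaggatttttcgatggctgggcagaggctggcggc
Pigr: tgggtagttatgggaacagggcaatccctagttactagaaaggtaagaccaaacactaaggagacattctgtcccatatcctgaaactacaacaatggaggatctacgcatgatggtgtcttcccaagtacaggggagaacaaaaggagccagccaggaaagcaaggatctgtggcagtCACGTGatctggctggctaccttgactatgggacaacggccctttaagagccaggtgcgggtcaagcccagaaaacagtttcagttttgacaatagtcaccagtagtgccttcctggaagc
In Derl3 the stress element stood on the reverse strand, 156 to 138 bases before the start, and the E-box 168 to 163 bases before it. The stress element was present in 39 of 32851 promoters (0.119%). In Pigr the E-box stood 71 to 66 bases before the start, and 7.15% of all promoters held one. The octamer (1.74% of promoters), the EBF1 core (0.904%) and the XBP1 response core (0.676%) were not in the windows of the 5 genes. A match is a description of these letters and does not show binding.

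All values are log2 signals as deposited, so a difference of 1 is a doubling of the signal. Differences are given with the standard error (SE) of the fit and levels with the standard deviation (SD). Calls are genes with a Benjamini-Hochberg adjusted p under 0.05 over the 22180 genes, from limma's moderated test on all 12 arrays. Arrays have no read depth, so precision is limited by their number. Replicate numbers only name samples.

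Some arrays stood apart, and the values that touch these genes were as follows. Sting1 had signals of 4.23, 4.13 and 4.34 in DKO, 6.87, 8.09 and 7.33 in IL10KO, 4.40, 4.32 and 4.28 in SKO, and 7.51, 6.40 and 4.56 in the libraries labelled WT. The library labelled WT replicate 3 was thus near the STING knockouts for the targeted gene. Across the 9 genes it lay closest to SKO replicate 1 of the 66 pairs of arrays, with a mean gap of 0.13 and a largest gap of 0.33. Over all genes this pair was also the closest of the 66, with an SD of the difference of 0.178. The pairs of WT replicate 3 with WT replicates 1 and 2 ranked 19 and 24 (0.345 and 0.37). Il10 was higher in IL10KO than in WT by 1.29 ± 0.19 (limma adjusted p = 0.00139), and whether its probe set lies in the deleted part is not stated in the labels, so it does not check them. The 13 measured epithelial genes averaged between 10.57 and 10.84 log2 in the 12 arrays, so epithelial RNA was high in each, but these genes do not tell colon from other epithelial tissue. The 11 measured pancreatic acinar genes averaged 9.10 in WT replicate 1, 11.89 in WT replicate 2, and 4.86 to 5.90 in the other 10 arrays. The 16 measured squamous and sebaceous genes averaged 5.23, 7.35 and 7.51 in the IL10KO arrays and 4.28 to 5.30 in the other 9. Any difference between groups other than genotype cannot be told apart from genotype, and in these bulk samples fewer cells of a type and less RNA per cell cannot be told apart.

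In the comparison of IL10KO with WT, Mzb1 was the only one of the 9 genes called. By the labels this comparison gives the effect of losing interleukin-10 with STING present. The library labelled WT replicate 3 had a Sting1 signal near the STING knockouts, as given above. Mzb1, a chaperone of the endoplasmic reticulum that assists immunoglobulin assembly in marginal zone B cells and plasma cells, was higher in IL10KO by 0.94 ± 0.20 (SE, 95% interval 0.51 to 1.36; limma adjusted p = 0.0124), a 1.92-fold higher signal. Over all genes, 8.14% were called in this comparison (693 higher, 1112 lower), and the median difference of the 9 genes was -0.08 against 0.03 for all genes. Xbp1 (0.37 ± 0.13, limma adjusted p = 0.0834) and Pigr (-0.38 ± 0.13, limma adjusted p = 0.0936) did not pass. For 3 of the 9 genes, Mzb1, Xbp1 and Pigr, the arrays of the genotypes did not overlap, which held for 30.0% of all genes. The 5 genes of the B cell surface were between -0.63 and 0.30, with intervals that reached from -1.65 to 1.28.

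**Figure D1:**
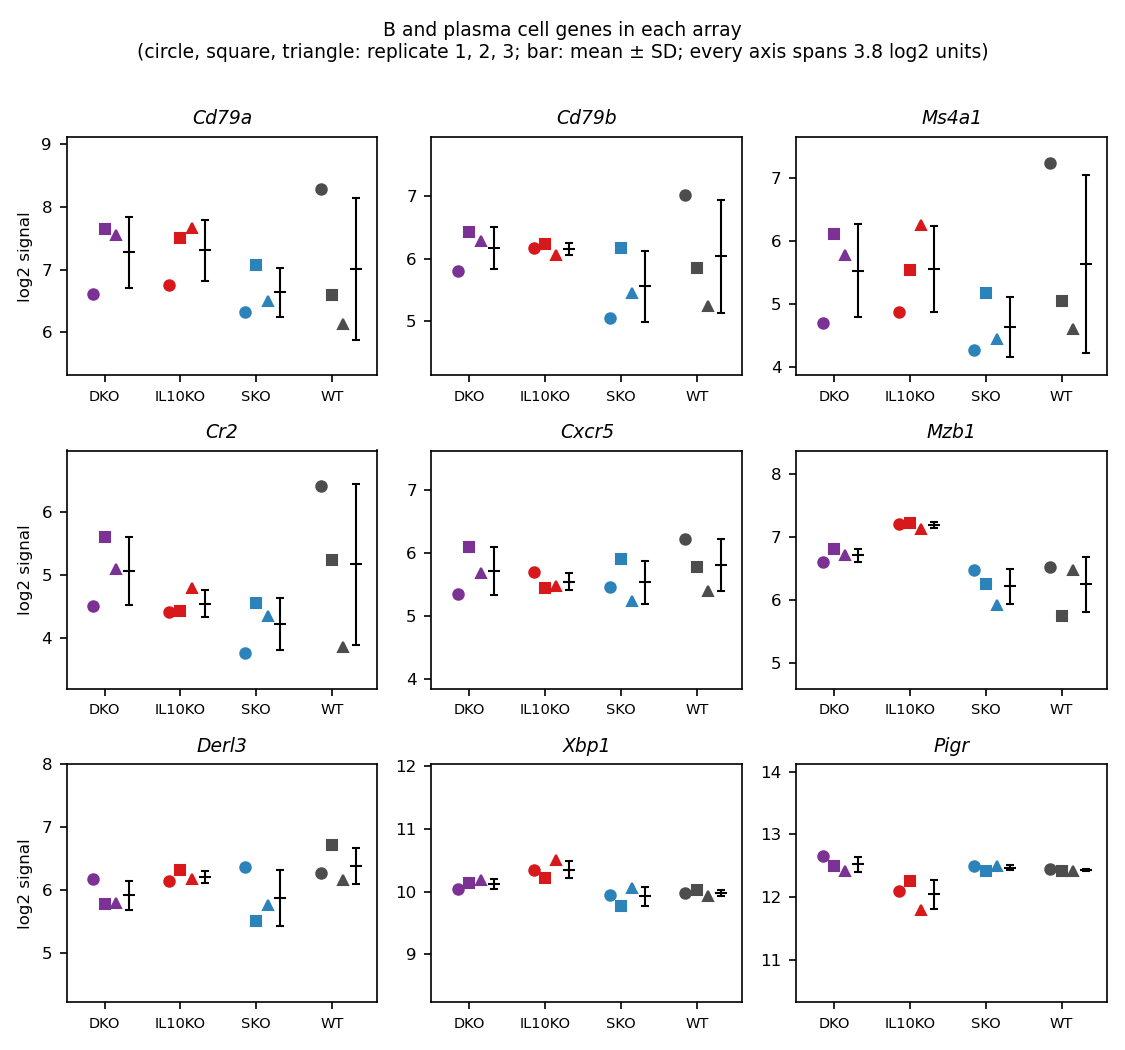
Log2 signal (vertical axes) of each of the 9 genes in every array, grouped by genotype from left to right as DKO, IL10KO, SKO and WT, with the mean and SD of 3 arrays as bars. Mzb1 lies between 7.13 and 7.22 in the 3 IL10KO arrays and between 5.74 and 6.81 in the other 9, while WT replicate 1 (circle) is the highest array for Cd79a, Cd79b, Ms4a1, Cr2 and Cxcr5.

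For the signalling chains of the B cell receptor, arrays of 1 genotype lay as far apart as the genotype means. Cd79a (probe set 17475127) had signals of 6.62, 7.65 and 7.56 in DKO, 6.76, 7.51 and 7.67 in IL10KO, 6.33, 7.08 and 6.50 in SKO, and 8.29, 6.60 and 6.14 in the libraries labelled WT. The WT arrays spanned the whole range of the other genotypes, from the lowest of the 12 values to the highest. The means were 7.27 ± 0.57 in DKO, 7.31 ± 0.49 in IL10KO, 6.63 ± 0.39 in SKO and 7.01 ± 1.13 in WT (SD, n = 3 each), and no neighbours in the order of these levels differed beyond their spread. Its partner Cd79b (probe set 17270837) had 5.80, 6.43 and 6.29 in DKO, 6.17, 6.24 and 6.06 in IL10KO, 5.06, 6.17 and 5.45 in SKO, and 7.02, 5.85 and 5.24 in the libraries labelled WT. All 4 genotypes overlapped for Cd79b, and again 1 WT array was the highest of all. Between IL10KO and WT, Cd79a differed by 0.30 ± 0.46 (limma adjusted p = 0.702) and Cd79b by 0.12 ± 0.37 (limma adjusted p = 0.863).

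Ms4a1, which encodes the B cell surface protein CD20, was the most variable of the 9 genes within genotypes. Its signal (probe set 17362922) was 4.69, 6.11 and 5.78 in DKO, 4.87, 5.54 and 6.25 in IL10KO, 4.27, 5.18 and 4.44 in SKO, and 7.25, 5.05 and 4.60 in the libraries labelled WT. The DKO and IL10KO means, 5.52 ± 0.75 and 5.55 ± 0.69, were close to the WT mean of 5.63 ± 1.42, and the SKO mean was 4.63 ± 0.49 (SD, n = 3 each). Cr2, complement receptor 2 of mature B cells and follicular dendritic cells (probe set 17231314), read 4.51, 5.60 and 5.09 in DKO, 4.41, 4.43 and 4.79 in IL10KO, 3.75, 4.56 and 4.35 in SKO, and 6.42, 5.24 and 3.86 in the libraries labelled WT. The IL10KO arrays lay close together for Cr2, above the library labelled WT replicate 3 and below the other WT arrays, with a difference of -0.63 ± 0.47 (limma adjusted p = 0.419). Cxcr5, the receptor for CXCL13 that draws B cells and follicular helper T cells into follicles (probe set 17526310), read 5.34, 6.10 and 5.69 in DKO, 5.70, 5.45 and 5.48 in IL10KO, 5.46, 5.91 and 5.24 in SKO, and 6.23, 5.78 and 5.40 in the libraries labelled WT. Its genotype means lay between 5.54 and 5.80, the narrowest span of the 5 surface genes.

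The 5 surface genes ordered the 12 arrays much alike. WT replicate 1 was the highest array for 5 of 5, with a mean over the 5 genes of 7.04. It was followed by DKO replicate 2 (6.38), DKO replicate 3 (6.08) and IL10KO replicate 3 (6.05). The library labelled WT replicate 3 (5.04) and SKO replicate 1 (4.97) were the lowest, and SKO replicate 1 was the lowest array for 3 of the 5. WT replicate 2 lay between, at 5.71. The 10 pairs among the 5 genes had Pearson r between 0.65 and 0.96 over the 12 arrays. After each genotype's mean was taken out, r lay between 0.73 and 0.99, and without WT replicate 1 between 0.46 and 0.94. Pairs of a surface gene with Mzb1, Derl3, Xbp1 or Pigr (20 pairs) had r between -0.29 and 0.42. For these pairs r lay between -0.45 and 0.29 after genotype means were taken out. Without WT replicate 1 it lay between -0.51 and 0.58, so the ranges of the 2 kinds of pairs then overlapped. These coefficients describe arrays of 4 genotypes that share tissue and processing, and were not tested.

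**Figure D2:**
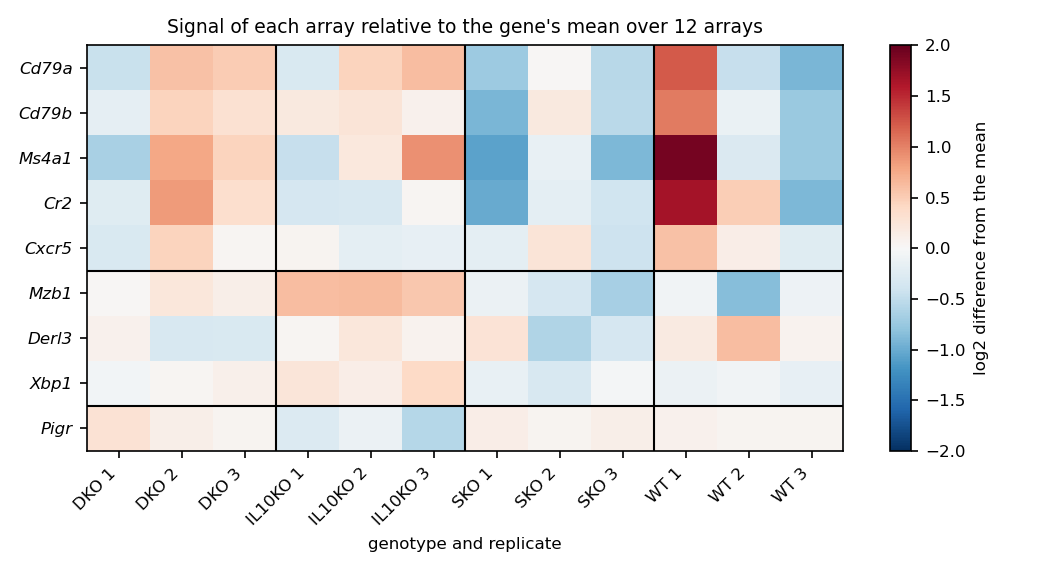
Difference of each array's log2 signal from the gene's mean over the 12 arrays (colour scale), with the 9 genes in rows and the arrays in columns grouped as DKO, IL10KO, SKO and WT. The 5 surface genes share a column pattern, highest in WT replicate 1, whereas Mzb1 and Xbp1 are highest and Pigr lowest in the IL10KO block.

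The residual SD within genotypes put numbers on this spread. It was 0.90 for Ms4a1, 0.74 for Cr2, 0.71 for Cd79a and 0.56 for Cd79b, against a median of 0.21 over all genes. Between 98.3% and 99.6% of all genes had a smaller residual SD than these 4. Cxcr5 (0.34), Derl3 (0.29) and Mzb1 (0.27) lay above the median, and Pigr (0.13) and Xbp1 (0.11) below it. The differences of the surface genes between IL10KO and WT moved with the WT arrays kept. Without WT replicate 1 they were 0.94 for Cd79a, 0.61 for Cd79b, 0.73 for Ms4a1, 0.00 for Cr2 and -0.05 for Cxcr5. Without the library labelled WT replicate 3 they were -0.13 for Cd79a, -0.28 for Cd79b, -0.60 for Ms4a1, -1.29 for Cr2 and -0.46 for Cxcr5. That of Cr2 came nearest to a call (limma adjusted p = 0.0659). None of the 5 genes was called in any comparison when any single array was left out.

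WT replicate 1 also carried the highest mean over 22 measured genes of B cell identity and receptor signalling, such as Cd22, Pax5 and Blnk, at 6.45 against 5.54 to 6.11 in the other 11 arrays. Its 10 measured T cell genes averaged 5.97, against 5.28 and 5.06 in the other WT arrays. They averaged 5.92 to 6.21 in IL10KO, 5.48 to 5.54 in DKO and 5.20 to 5.42 in SKO. Its acinar mean of 9.10 is given above. The part of lymphoid or acinar content in the surface gene values of this array was not tested.

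Of the 3 genes of the secretory apparatus, Mzb1 was the one called. Its signal (probe set 17353619, chromosome 18) was 6.61, 6.81 and 6.71 in DKO, 7.21, 7.22 and 7.13 in IL10KO, 6.47, 6.25 and 5.92 in SKO, and 6.52, 5.74 and 6.48 in the libraries labelled WT. Each IL10KO array lay above each of the other 9 arrays, and the DKO arrays lay above all SKO and WT arrays. The means were 6.71 ± 0.10 in DKO, 7.19 ± 0.05 in IL10KO, 6.21 ± 0.28 in SKO and 6.25 ± 0.44 in WT (SD, n = 3 each). SKO and WT did not differ beyond their spread, at -0.03 ± 0.20. The rise in IL10KO against WT was 0.68 to 1.07 when each of the 12 arrays was left out in turn and was called each time (limma adjusted p between 0.0132 and 0.0444). It was 1.04 (limma adjusted p = 0.0428) when 3 arrays that stood apart were left out together (IL10KO replicate 1, SKO replicate 2 and the library labelled WT replicate 3). That setting left WT replicates 1 and 2 to stand for WT, the arrays with acinar means of 9.10 and 11.89. The call was lost without WT replicates 1 and 2 (0.70, limma adjusted p = 0.204), which left only the library labelled WT replicate 3 to stand for WT. It was also lost when only the IL10KO and WT arrays were fitted (0.94, limma adjusted p = 0.0526).

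The IL10KO arrays differed widely in squamous and sebaceous signal (5.23, 7.35 and 7.51) while their Mzb1 signals lay within 7.13 to 7.22. WT replicate 2, the array with the highest acinar mean, had the lowest Mzb1 signal of the 12, and without it the difference from IL10KO was 0.68 (limma adjusted p = 0.0444). Other cell types moved in the same comparison. Among myeloid genes 5 of 11 rose in IL10KO against WT and among T cell genes 4 of 10, while 10 of 12 smooth muscle genes fell. Of the squamous and sebaceous genes 14 of 16 rose in IL10KO against WT, and of the acinar genes 5 of 11 fell. Without WT replicates 1 and 2, calls were made for 2 myeloid, 2 T cell and 3 smooth muscle genes, and without the 3 arrays that stood apart 5, 1 and 6. The part of these cell types in the Mzb1 difference was not tested.

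Xbp1, the transcription factor that drives the secretory programme of plasma cells and of other secretory cells, was the steadiest of the 9 genes within genotypes. Its signal (probe set 17246967) was 10.04, 10.14 and 10.19 in DKO, 10.34, 10.22 and 10.50 in IL10KO, 9.94, 9.77 and 10.06 in SKO, and 9.98, 10.02 and 9.93 in the libraries labelled WT. The IL10KO arrays lay above all others, as they did for Mzb1, and the DKO arrays lay above the WT arrays. The difference of IL10KO from WT was 0.37 ± 0.13 and was not called, but it was called after quantile normalization (0.52, limma adjusted p = 0.0189), with a trended variance prior (0.37, limma adjusted p = 0.0494) and without IL10KO replicate 2 (0.44, limma adjusted p = 0.0471). The other 11 single omissions and 6 of 8 other settings did not call it, with a limma adjusted p of up to 0.419. Xbp1 is expressed in goblet and other epithelial cells as well as in plasma cells, so its signal is not particular to B lineage cells.

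Derl3, a subunit of the machinery that returns misfolded proteins from the endoplasmic reticulum, did not follow Mzb1. Its signal (probe set 17234423) was 6.18, 5.77 and 5.79 in DKO, 6.14, 6.32 and 6.17 in IL10KO, 6.37, 5.50 and 5.76 in SKO, and 6.27, 6.71 and 6.16 in the libraries labelled WT. The genotypes overlapped, and the highest array was WT replicate 2, which also had the highest acinar mean. The difference of IL10KO from WT was -0.17 ± 0.21 (limma adjusted p = 0.639), and without WT replicate 2 it was 0.00. The part of acinar RNA in this value was not tested. Over the 12 arrays Mzb1 had Pearson r of 0.69 with Xbp1, falling to -0.33 after each genotype's mean was taken out, and of -0.03 with Derl3.

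**Figure D3:**
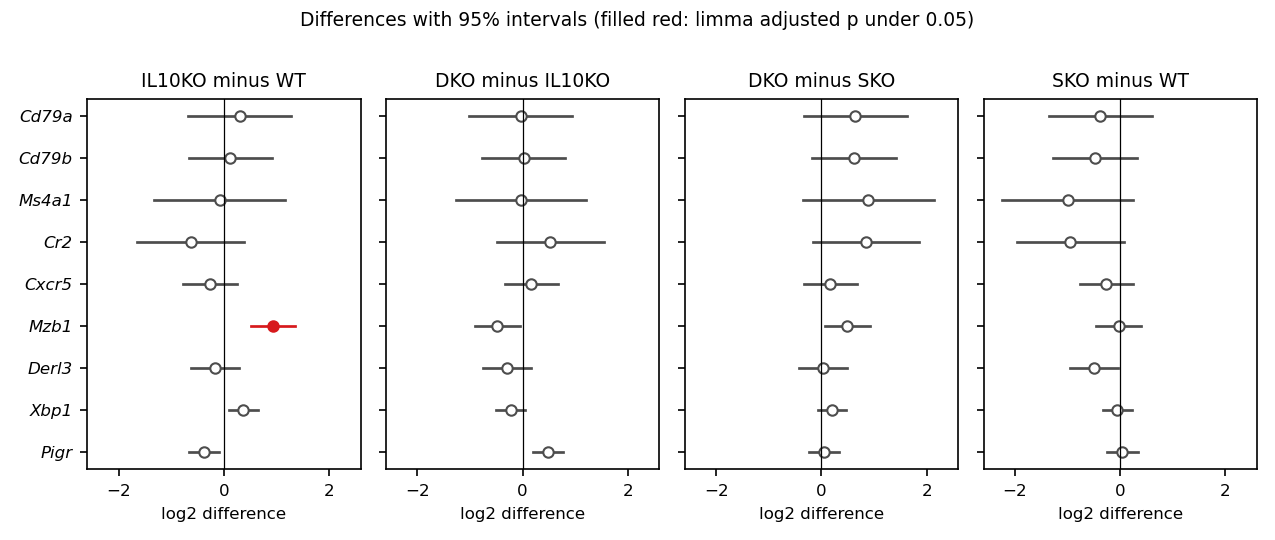
Log2 differences of the 9 genes (rows) with 95% intervals in 4 comparisons: IL10KO minus WT, DKO minus IL10KO, DKO minus SKO and SKO minus WT. Only Mzb1 in IL10KO minus WT is filled, at 0.94, and the intervals of Cd79a, Cd79b, Ms4a1 and Cr2 are the widest in every panel.

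Immunoglobulin and plasma cell genes were measured beside these, in IL10KO against WT, where 8.14% of all genes were called. Of 3 immunoglobulin genes 1 was called higher, and of 12 plasma cell genes 1 higher and 1 lower. Of 13 immunoglobulin entries 3 had a probe set with 1 symbol (Ighm, Ighg3 and Jchain), so the heavy chain of immunoglobulin A and the light chains were not analysed here. Ighm, the heavy chain of immunoglobulin M, read 12.29, 12.30 and 11.90 in DKO, 13.05, 12.99 and 12.62 in IL10KO, 11.59, 11.80 and 11.17 in SKO, and 12.49, 12.20 and 11.66 in the libraries labelled WT. The IL10KO arrays were the highest of the 12, and the difference from WT was 0.77 ± 0.22 (limma adjusted p = 0.0491). That call was lost in 9 of 12 omissions of a single array, and also without WT replicates 1 and 2 or the 3 arrays that stood apart. Jchain, which links immunoglobulin A and M into polymers, differed by 0.41 ± 0.24 between IL10KO and WT (limma adjusted p = 0.308). Of the 12 measured plasma cell genes, Prdm1, the repressor that sets plasma cell identity, rose in IL10KO by 0.82 ± 0.16 (limma adjusted p = 0.00937). Zbtb20, a zinc finger factor of plasma cells that is also made in many other tissues, fell by 0.70 (limma adjusted p = 0.0127) in IL10KO. The part of other cell types in the Prdm1 and Zbtb20 values was not tested. The other 10 were not called, and the list median was 0.26 against 0.03 for all genes. Of the 12, 4 had an unadjusted p under 0.05. Without WT replicates 1 and 2 none of the 12 was called, and without the 3 arrays that stood apart 1 was.

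None of the 22 measured genes of B cell identity and receptor signalling was called in IL10KO against WT or in any other comparison, and their median difference in IL10KO against WT was 0.01, with 5 of the 22 at an unadjusted p under 0.05. The count became 1 without the 3 arrays that stood apart and 2 without WT replicate 1. Of the 19 measured genes of B cell attraction, follicles and survival, which include Cxcl13 and Ccr7, none was called in IL10KO against WT, with a median of 0.34 and 5 at an unadjusted p under 0.05, and 1 was called without the 3 arrays that stood apart. Of 25 measured genes of protein folding and stress in the endoplasmic reticulum, 8 had an unadjusted p under 0.05. Their median difference was -0.19, against 0.03 for all genes. Where 8.14% of all genes were called, none of the 25 was called higher and 2 were called lower. These were Ern1, the stress sensor that splices Xbp1 RNA (-0.58 ± 0.12, limma adjusted p = 0.0138), and its epithelial relative Ern2 (-0.62 ± 0.13, limma adjusted p = 0.0135). Neither remained called without WT replicates 1 and 2, nor without the 3 arrays that stood apart.

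Pigr carries polymeric immunoglobulins across the epithelium and was high in every array. Its signal (probe set 17216960) was 12.65, 12.49 and 12.42 in DKO, 12.09, 12.25 and 11.79 in IL10KO, 12.50, 12.42 and 12.49 in SKO, and 12.45, 12.42 and 12.42 in the libraries labelled WT. The 3 IL10KO arrays lay below the other 9, which spanned only 12.42 to 12.65. The means were 12.52 ± 0.11 in DKO, 12.04 ± 0.24 in IL10KO, 12.47 ± 0.04 in SKO and 12.43 ± 0.02 in WT (SD, n = 3 each). The difference of IL10KO from WT was -0.38 ± 0.13 (95% interval -0.67 to -0.09; limma adjusted p = 0.0936), and without IL10KO replicate 2 it was -0.49 and called (limma adjusted p = 0.0345). Without IL10KO replicate 3 it was -0.26 (limma adjusted p = 0.259), and it was called in 1 of 12 single omissions and 0 of 8 other settings.

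Pigr transcription is raised by interleukin-17, interferon-gamma, tumour necrosis factor and interleukin-4, and 13 genes of these inputs were measured. Of these, 2 rose in IL10KO against WT and 11 were not called, and the count was 2 without either set of doubted arrays. Tnf, the gene of tumour necrosis factor, rose by 1.25 ± 0.20 (limma adjusted p = 0.00312), and Il4ra, the interleukin-4 receptor chain, by 1.11 ± 0.14 (limma adjusted p = 0.000709). None of the 13 general epithelial genes was called by limma, and 2 had an unadjusted p under 0.05. Of 12 secretory epithelial genes 3 fell in IL10KO, among them the goblet cell genes Clca1 (-1.47) and Fcgbp (-1.25), and the count was 2 without either set of doubted arrays. The part of epithelial content in the Pigr values was not tested.

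Loss of STING where interleukin-10 is absent was read from DKO against IL10KO, and limma called none of the 9 genes there, while it called 5.79% of all genes. At an unadjusted p under 0.05 there were 2 of the 9, Pigr and Mzb1. Pigr was higher in DKO by 0.48 ± 0.13 (95% interval 0.19 to 0.77; limma adjusted p = 0.0543), just outside the threshold. It was called after centring of arrays (0.52, limma adjusted p = 0.0342), without the dimmest 33.3% of genes (limma adjusted p = 0.0408), with a trended variance prior (limma adjusted p = 0.0247), and without IL10KO replicate 2 (0.58, limma adjusted p = 0.022) or SKO replicate 2 (limma adjusted p = 0.0475). It was not called in the other 10 single omissions, which went down to 0.35 and up to a limma adjusted p of 0.193, nor in 5 of 8 other settings, up to a limma adjusted p of 0.171. Mzb1 differed by -0.48 ± 0.20 (limma adjusted p = 0.16), and Xbp1 differed by -0.23 ± 0.13 (limma adjusted p = 0.281). The arrays of DKO and IL10KO did not overlap for Pigr, Mzb1 and Xbp1, 3 of 9 genes against 27.2% of all genes. Of the surface genes, Cr2 had the largest difference of the 9 genes, 0.52 (95% interval -0.49 to 1.54; limma adjusted p = 0.51), with overlapping arrays. Cxcr5 differed by 0.16 (-0.34 to 0.67), Cd79a by -0.04 (-1.02 to 0.94), Cd79b by 0.02 (-0.78 to 0.81) and Ms4a1 by -0.03 (-1.27 to 1.21). These intervals are wide and do not show that the genotypes were alike. The comparison shares its IL10KO arrays with that of IL10KO and WT, so opposite signs in both are not independent of each other.

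**Figure D4:**
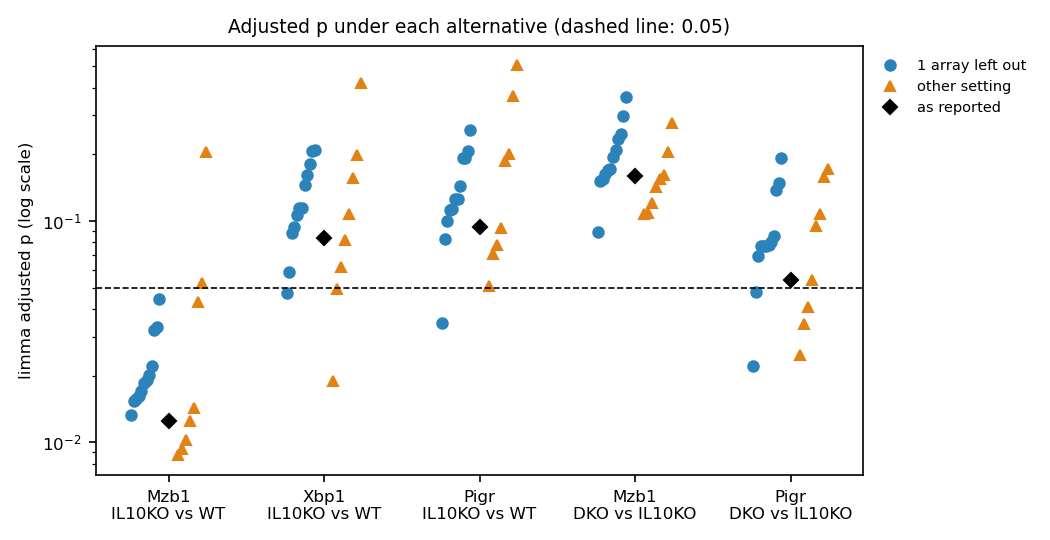
limma adjusted p (vertical axis, log scale) for 5 gene and comparison pairs, as reported (diamond), with 1 array left out (circles) and under other settings (triangles); the dashed line is 0.05. Mzb1 in IL10KO against WT is below the line in all 12 single omissions and above it in 2 other settings, while Xbp1 and Pigr cross it in a few.

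In the lists, Tnf (-0.80 ± 0.20, limma adjusted p = 0.0362) and Il4ra (-0.96 ± 0.14, limma adjusted p = 0.0024) fell in DKO against IL10KO, the 2 calls among 13 inputs of Pigr. Ccl28, an epithelial chemokine that draws plasma cells secreting immunoglobulin A through CCR10, rose in DKO by 0.69 ± 0.16 (limma adjusted p = 0.0227). Its signals were 10.53, 10.36 and 10.08 in DKO, 9.50, 9.61 and 9.80 in IL10KO, 10.06, 10.01 and 10.22 in SKO, and 9.74, 9.49 and 9.94 in the libraries labelled WT. The DKO and IL10KO arrays did not overlap, and the IL10KO arrays overlapped those of WT. It was 1 call among 19 genes of attraction and survival, and none of the 19 was called without the 3 arrays that stood apart. Zbtb20 (0.57 ± 0.15, limma adjusted p = 0.0404) and Ern1 (0.55 ± 0.12, limma adjusted p = 0.0215) rose in DKO, each the single call of its list. Zbtb20 was not called without either set of doubted arrays, and Ern1 was not called without WT replicates 1 and 2. No immunoglobulin gene was called, with Ighm at -0.72 (limma adjusted p = 0.0711). Beside these, 10 of 12 smooth muscle genes and 4 of 12 secretory epithelial genes rose in DKO, and 4 of 11 myeloid genes fell. Of the squamous and sebaceous genes 7 of 16 fell in DKO, with a list median of -2.13, the furthest of them Elovl3, a fatty acid elongase of sebaceous glands, at -4.35 ± 0.78 (limma adjusted p = 0.00634). Of the T cell genes 1 of 10 fell (Icos, a costimulatory receptor, -0.54) and of the acinar genes 1 of 11 rose (Clps, pancreatic colipase, with a mean of 7.84 in DKO, against 5.94 in IL10KO). The part of these cell types in the member values was not tested.

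In SKO against WT, by the labels the effect of STING loss with interleukin-10 present, none of the 9 genes was called. Neither was any other gene (0% of 22180), Sting1 itself included (-1.82 ± 0.52). For Sting1 the library labelled WT replicate 3 read 4.56, against 4.28 to 4.40 in SKO. The lack of calls therefore does not show that STING loss had no effect. Without adjustment 454 genes and 1 of the 9, Derl3 (-0.50 ± 0.21), had p under 0.05. Derl3 was highest in WT replicate 2 (6.71), and its difference was -0.75 to -0.31 when each array was left out in turn. The largest differences were those of Ms4a1 (a mean of 4.63 in SKO, against 5.63 in WT) and Cr2 (4.22 in SKO, against 5.17 in WT), both with limma adjusted p = 1. These differences moved with the WT arrays kept. Without WT replicate 1 they were -0.20 for Ms4a1 and -0.33 for Cr2, and without the library labelled WT replicate 3 they were -1.52 for Ms4a1 (limma adjusted p = 1) and -1.61 for Cr2 (limma adjusted p = 0.159). No member had arrays that did not overlap, against 6.21% of all genes.

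In DKO against SKO, the effect of interleukin-10 loss without STING, all 9 genes had a higher mean in DKO and none was called by limma (0.0451% of all genes were), with 1 of the 9, Mzb1, at an unadjusted p under 0.05. The median difference of the 9 was 0.49, against -0.03 for all genes. The differences ranged from 0.03 for Derl3 to 0.89 ± 0.58 for Ms4a1, and that of Mzb1 was 0.49 ± 0.20 (limma adjusted p = 0.998). Only the arrays of Mzb1 did not overlap, 1 of 9 genes against 11.1% of all genes. The surface genes moved together across arrays, as described above, so 9 equal signs are not 9 separate observations. In DKO against WT none of the 9 was called by limma (0.0451% of all genes), with Mzb1 and Derl3 (-0.47 ± 0.21) at an unadjusted p under 0.05. The Derl3 difference was -0.60 to -0.30 when each array was left out in turn. Mzb1 (0.46 ± 0.20) and Xbp1 (0.15 ± 0.13) were the 2 whose arrays did not overlap, against 9.40% of all genes.

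The difference between these effects of interleukin-10 loss, DKO minus SKO less IL10KO minus WT, was tested directly. None of the 9 genes was called, against 0.645% of all genes, and 2 had an unadjusted p under 0.05. Cr2 gave 1.47 ± 0.67 (limma adjusted p = 0.31) and Pigr 0.43 ± 0.19 (limma adjusted p = 0.296). The value of Cr2 was 0.85 without WT replicate 1 (limma adjusted p = 0.522). Omitting the library labelled WT replicate 3 gave 2.13 (limma adjusted p = 0.0748). Mzb1 gave -0.44 ± 0.28 (95% interval -1.05 to 0.16; limma adjusted p = 0.443), with values from -0.59 without SKO replicate 3 to -0.19 without WT replicate 2. A dependence of the Mzb1 response on STING was not detectable with these arrays.

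The genes most like 3 of the members over the 12 arrays, among 18644 compared, were found by Pearson r as a description. For Cd79a these were Cd22 (0.968), Btla (0.957), Ltb (0.917), H2-Eb2 (0.916) and Stap1 (0.915). Cd22 is an inhibitory coreceptor of B cells, Btla an inhibitory receptor of lymphocytes, and Ltb the lymphotoxin chain that organises lymphoid tissue. After genotype means were taken out, r of these 5 with Cd79a stayed between 0.92 and 0.97, and none was called in any comparison.

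For Mzb1 the genes were Smpdl3b (0.935), Rilpl2 (0.930), Ddah1 (0.921), Zc3h12a (0.910) and Olfr1275 (0.905). Smpdl3b, a lipid-modulating phosphodiesterase, and Zc3h12a, a ribonuclease that limits inflammatory messages, were higher in IL10KO than in WT by 1.06 and 1.04. Of the 5, 4 were called higher in that comparison and Olfr1275 was not. None of the 5 was among the immunoglobulin or plasma cell lists. Their r with Mzb1 within genotypes was between 0.67 and 0.74.

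For Pigr the genes were Slc26a3 (0.978), Slc6a14 (0.975), Papss2 (0.973), Tent5a (0.971) and Lclat1 (0.968). Slc26a3 is the chloride and bicarbonate exchanger of surface colonocytes, Slc6a14 an amino acid transporter and Papss2 an enzyme of sulphate activation. All 5 were called lower in IL10KO than in WT, by 0.65 to 0.98 in size, and all 5 higher in DKO than in IL10KO. Slc26a3 read 12.02, 11.84 and 11.67 in DKO, 10.83, 11.38 and 10.30 in IL10KO, 11.76, 11.86 and 11.92 in SKO, and 11.87, 11.72 and 11.81 in the libraries labelled WT. As for Pigr, IL10KO replicate 3 was the lowest array and IL10KO replicate 2 the highest of its genotype. Within genotypes r with Pigr was between 0.91 and 0.97. Likeness was measured on the arrays compared, so these calls do not add to the result for Pigr or Mzb1.

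Mzb1 and Pigr each lie near a targeted gene, in the gene order of GRCm38.p6. Mzb1 is 6 genes from Sting1 on chromosome 18, with Prob1, Spata24, Dnajc18, Ecscr and 1700066B19Rik between them. Of these 5, Ecscr, an endothelial surface protein, was called, at 0.60 ± 0.14 in IL10KO against WT (limma adjusted p = 0.0217) and -0.55 ± 0.14 in DKO against IL10KO (limma adjusted p = 0.0389). The other 4 were not called in either comparison. Of these, Spata24 read 6.13, 6.07 and 6.07 in DKO and 5.96, 6.07 and 6.05 in SKO. In IL10KO it read 6.32, 6.38 and 6.32, and in the libraries labelled WT 6.27, 6.23 and 6.31. Every STING-/- array thus lay below every array labelled STING+/+, the library labelled WT replicate 3 (6.31) included. Over all genes, 27.2% had DKO and IL10KO arrays that did not overlap, and 6.21% had SKO and WT arrays that did not. The share of all genes that separate in both was not computed. The Spata24 differences were -0.25 ± 0.11 in DKO against IL10KO (limma adjusted p = 0.175) and -0.24 ± 0.11 in SKO against WT, not called. Pigr is 6 genes from Il10 on chromosome 1. Of the 5 genes between them, Fcmr, Il24, Il20 and Il19 were measured and not called, and Gm41952 was not measured here. The Pigr neighbourhood was chosen after its values had been seen. The part of sequence linked to the targeted alleles in these values was not tested.

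**Figure D5:**
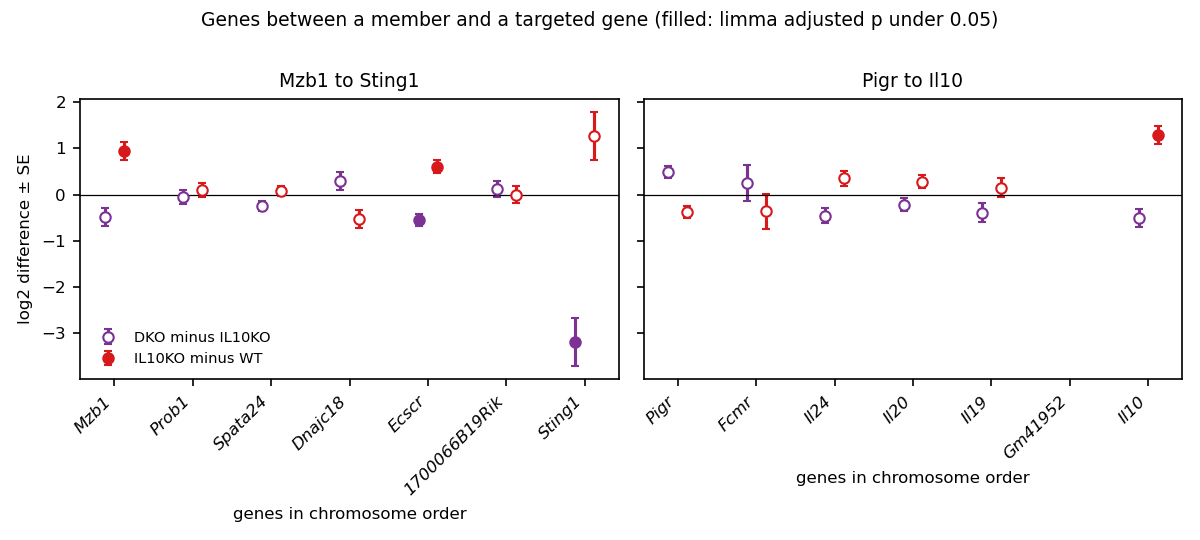
Log2 difference with SE (vertical axis) of the genes from Mzb1 to Sting1 and from Pigr to Il10, in chromosome order, for DKO minus IL10KO (purple) and IL10KO minus WT (red); filled points have limma adjusted p under 0.05. Between Mzb1 and Sting1 only Ecscr is filled, and between Pigr and Il10 no gene is.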

How the data were processed

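Colon RNA of 12 samples, 3 per genotype, was labelled with the WT PLUS kit and hybridised to Affymetrix arrays, per the labels' protocols. The authors deposited 1 table of log2 signals, 41345 probe sets by 12 columns, for which the submitters' processing notes name Affymetrix Expression Console 1.3.1.187. The sources used here do not name the background correction, the normalization or the genome build. That the scale is log2 rests on the range of the values and on array medians between 4.80 and 5.02. The platform annotation gave 1 symbol to 23521 probe sets, several to 1814 and none to 16010, and the brightest single-symbol probe set stood for each of 1082 genes that had more than 1, giving 22180 genes.

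The values were used as deposited. limma 3.58.1 in R 4.3.3 fitted a mean per genotype (8 residual and 5.56 prior degrees of freedom), with Benjamini-Hochberg adjustment over all genes. Tests were 2-sided. The fit was tried on simulated independent values with no arrays that stood apart. That trial does not cover the arrays that stood apart here. Genotypes came from the labels. Replicate numbers follow the order of the samples and pair nothing. Members, 13 gene lists, tests and alternatives were chosen with earlier results of these data known. Genes named are the 9 members, Sting1, Il10, at most 4 called genes per list and comparison, the 5 most like Cd79a, Mzb1 and Pigr, and the genes between Mzb1 and Sting1 and, added after their values were seen, between Pigr and Il10. List genes named without a call are examples of a list, chosen after their values were seen. Of 206 list entries 179 were measured. Alternatives were quantile normalization, centring of each array on its median, averaging the probe sets of a gene, dropping the 33.3% of genes with the lowest means, only the genotypes compared, a trended variance prior, each array left out in turn, WT replicates 1 and 2 left out, and 3 arrays that stood apart in earlier results (IL10KO replicate 1, SKO replicate 2 and the library labelled WT replicate 3) left out.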

Additional observations from a re-analysis of the deposited data

How the results depend on the processing

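The 54 differences (9 genes, 6 comparisons) were recomputed 1071 times under single omissions and 8 other settings: 1060 kept their side of the threshold, 2 lost a call, 9 gained one and no called difference changed sign. In 58 of the 1060 an uncalled difference had the other sign. Both lost calls were of Mzb1 in IL10KO against WT, at 0.70 without WT replicates 1 and 2 and at 0.94 with only the genotypes compared (limma adjusted p = 0.204 and 0.0526). Of the 9 genes, those called in IL10KO against WT were 2 after quantile normalization, 2 with a trended prior, 0 without WT replicates 1 and 2, 0 with only the genotypes compared, and 1 to 3 with single arrays left out. In DKO against IL10KO they were 1 after centring, 1 without the dimmest genes, 1 with a trended prior, and 0 to 1 with single arrays left out. Counts over all genes are not given here for quantile normalization, centring, the dimmest genes dropped or the trended prior. Under those settings the 9 genes are not set against all genes. Without WT replicates 1 and 2, the calls over all genes were 232 in IL10KO against WT, 846 in DKO against IL10KO, 32 in DKO against SKO and 16 for the difference of effects. Without the 3 arrays that stood apart, they were 1013 in IL10KO against WT, 50 in SKO against WT, 21 in DKO against SKO, 78 in DKO against WT and 245 for the difference of effects. With only the genotypes compared, they were 704 in IL10KO against WT, 489 in DKO against IL10KO and 41 in DKO against SKO. With single arrays left out, they were 783 to 3070 in IL10KO against WT, 425 to 2361 in DKO against IL10KO, 0 to 55 in SKO against WT, 5 to 20 in DKO against SKO, 5 to 69 in DKO against WT and 50 to 376 for the difference of effects. Leaving out WT replicates 1 and 2 keeps 1 WT array, which is assumed to vary like the other groups. The causes of these changes were not tested. No paired analysis was possible because replicate numbers only name samples. Dim signals lack detection calls, so no gene can be called absent.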
